A study of Mus musculus with 11 samples.

Results

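The Zic gene family was examined through the peaks listed by chromatin immunoprecipitation sequencing (ChIP-seq) at Zic1, Zic2, Zic4 and Zic5 in mouse epiblast stem cells (EpiSCs). A peak was counted as a member when its midpoint lay within a Zic gene body or 50 kb on either side, which gave 151 of the 1004445 peaks in the 10 lists of the series. Of these, 60 lay at the Zic1-Zic4 locus on chromosome 9 and 91 at the Zic2-Zic5 locus on chromosome 14. The transcription factors (TFs) profiled were ZIC2, OTX2, SOX2, POU5F1 and POU3F1, each in 1 library per culture. EpiSC denotes feeder-free culture of a line of strain 129/Sv with activin and Fgf2, and activin-free denotes the same cells from which activin had been withdrawn 18 h before harvest. Both cultures carried, transiently, a plasmid that expressed the TF under study with a tag biotinylated by the BirA enzyme, so the TF recovered was the exogenous one, and the chromatin was pulled down with streptavidin. Because the plasmid for ZIC2 held Zic2 coding sequence, the 4 ZIC2-list peaks on Zic2 coding exons, 2 in each culture, are among these 151 but were set apart, and the counts that follow, over 71 peaks in EpiSC and 76 in activin-free culture, leave them out.

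Peak lists hold no RNA levels, so the identity of the cells could not be checked against marker genes. The lists held between 62457 and 126908 peaks, and each peak carried a MACS score, which is -10 times the log10 of its p-value against input DNA, with a minimum of 50 and a ceiling near 3100. The POU5F1 list held 62457 peaks in EpiSC and 126908 in activin-free culture, the widest gap among the TFs. With no replicate libraries and no read depth in the lists, no difference between cultures could be tested, and a region without a listed peak was not shown to be unbound.

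ZIC proteins are zinc finger TFs related to the GLI family, and they take part in early neural development. Zic2 is required for forebrain and neural tube formation, Zic5 for neural crest, and Zic1 and Zic4 for the cerebellum. Zic1 with Zic4 and Zic2 with Zic5 form pairs arranged head to head. OTX2 is a homeodomain TF of the epiblast and the anterior neural plate, SOX2 an HMG-box TF of pluripotent and neural cells, POU5F1 the POU factor of pluripotency, and POU3F1 a POU factor of the late epiblast and neural progenitors.

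Coordinates are those of build mm9, with genes from GENCODE. Zic1 (ENSMUSG00000032368.8) occupied chr9:91252896-91260648 on the minus strand and Zic4 (ENSMUSG00000036972.8) chr9:91257251-91284186 on the plus strand, so that their 5′ parts overlapped. Zic5 (ENSMUSG00000041703.7) occupied chr14:122856017-122864899 on the minus strand, and Zic2 (ENSMUSG00000061524.7) chr14:122874604-122879074 on the plus strand. The annotation gives 3 transcription start sites (TSSs) for Zic1, 12 for Zic4, 3 for Zic2 and 2 for Zic5, of which the outer Zic5 TSS is at 122864899 and the inner at 122859243, and distances are to the nearest TSS. The Zic1-Zic4 window spanned 131 kb with a GC content of 41.5%, and the nearest protein-coding genes were Tbc1d2b at 1090 kb and Plscr1 at 861 kb. The Zic2-Zic5 window spanned 123 kb with a GC content of 44.9%, against 41.8% in the genome, and predicted genes lay close by, Gm5089 at 5.68 kb and Gm10837 at 10.7 kb.

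The sequences under the leading peaks are shown first, because they differed in kind among the TFs. Each is 300 bases of the mm9 plus strand centred on a peak midpoint, except the last, which is 250 bases of the minus strand that end at the base before the outer Zic5 TSS. Capitals mark the letters searched for on both strands, namely CAGCAGG for ZIC, GGATTA and GGTAAT for OTX2, ACAAAG and ACAATG for SOX2 and ATGCAAAT and ATGCATAT for POU factors. The first sequence comes from the site with the largest number of TFs outside Zic2 coding exons, where the SOX2 peak was also the highest of that TF at the Zic loci, and the next 3 from the highest-scoring ZIC2, OTX2 and POU3F1 peaks outside those exons.
Site of ZIC2, OTX2, SOX2 and POU5F1, chr14:122815583-122815882: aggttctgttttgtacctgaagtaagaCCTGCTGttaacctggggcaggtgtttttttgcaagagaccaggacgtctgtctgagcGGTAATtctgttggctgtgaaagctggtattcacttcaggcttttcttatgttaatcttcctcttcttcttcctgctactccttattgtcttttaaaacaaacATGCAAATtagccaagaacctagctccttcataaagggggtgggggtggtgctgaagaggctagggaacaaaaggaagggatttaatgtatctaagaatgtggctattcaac
ZIC2, chr14:122889939-122890238: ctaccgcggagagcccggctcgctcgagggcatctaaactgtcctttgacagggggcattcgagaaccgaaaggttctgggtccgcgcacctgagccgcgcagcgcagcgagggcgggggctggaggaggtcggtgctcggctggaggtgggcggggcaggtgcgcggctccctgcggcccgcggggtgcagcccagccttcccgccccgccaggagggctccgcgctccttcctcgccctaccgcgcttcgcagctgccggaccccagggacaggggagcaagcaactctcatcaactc
OTX2, chr14:122909347-122909646: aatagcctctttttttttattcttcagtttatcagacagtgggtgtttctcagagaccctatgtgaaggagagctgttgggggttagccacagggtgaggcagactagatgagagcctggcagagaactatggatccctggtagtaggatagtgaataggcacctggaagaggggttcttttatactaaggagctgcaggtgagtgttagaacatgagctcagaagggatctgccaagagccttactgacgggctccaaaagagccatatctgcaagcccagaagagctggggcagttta
POU3F1, chr9:91318917-91319216: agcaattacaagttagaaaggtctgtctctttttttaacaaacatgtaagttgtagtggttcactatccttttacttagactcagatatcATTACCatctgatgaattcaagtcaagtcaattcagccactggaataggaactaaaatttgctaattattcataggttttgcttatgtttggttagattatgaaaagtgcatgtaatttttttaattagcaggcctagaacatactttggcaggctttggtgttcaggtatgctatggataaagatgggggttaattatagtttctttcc
Before the outer Zic5 TSS, chr14:122864900-122865149: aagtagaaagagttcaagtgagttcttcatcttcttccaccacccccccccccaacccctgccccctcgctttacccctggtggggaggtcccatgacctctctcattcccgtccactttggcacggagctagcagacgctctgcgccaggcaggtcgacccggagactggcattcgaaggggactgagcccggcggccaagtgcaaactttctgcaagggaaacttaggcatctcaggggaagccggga

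The site with 4 TFs held the ZIC letters in reverse complement from base 28, the OTX2 letters GGTAAT from base 86 and the POU letters ATGCAAAT from base 189. The stretch under the highest ZIC2 peak had a GC content of 71.3% with 31 CpG dinucleotides. It overlapped a coding exon of the predicted gene Gm10837 and held none of the letters searched. The POU3F1 stretch had the lowest GC content of the 5, 33.3%, and held GGTAAT in reverse complement from base 91. The bases before the outer Zic5 TSS, at 60% GC, held none of the letters, although a broad ZIC2 peak covered them in both cultures.

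All 4 Zic genes had at least 1 peak of every TF in both cultures. This was not particular to the family for most lists. Among 22367 protein-coding genes with the same 50 kb windows, 93.1% had a ZIC2 peak in EpiSC and 92.3% in activin-free culture. The corresponding shares were 93.3% and 95.6% for OTX2, 75% and 85.6% for SOX2, 77.3% and 89.5% for POU5F1, and 47.8% and 53% for POU3F1. Peaks of all 5 TFs were found at 34.2% of genes in EpiSC and 42.8% in activin-free culture.

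The loci differed in which TFs predominated. POU3F1 contributed the largest number of peaks at Zic1-Zic4, with 11 in EpiSC and 10 in activin-free culture, and the smallest number at Zic2-Zic5, with 3 in each. ZIC2 had fewer peaks at Zic1-Zic4, with 4 in each culture, than at Zic2-Zic5, with 10 in EpiSC and 9 in activin-free culture. Per 100 kb, POU3F1 peaks at Zic1-Zic4 were 1.9 times (EpiSC) and 1.91 times (activin-free) as dense as in the whole genome, and at Zic2-Zic5 0.554 and 0.612 times as dense. The ZIC2 density was 0.64 and 0.715 times that of the genome at Zic1-Zic4, and 1.71 and 1.72 times at Zic2-Zic5. Without its peaks on Zic2 coding exons, described below, POU3F1 had 1 peak at Zic2-Zic5 in either culture, and the ratios were 0.185 and 0.204. The order of the TFs depended on the window and the list length. With 20 kb on either side, POU3F1 had 3 peaks in EpiSC and 4 in activin-free culture at Zic1-Zic4, against 4 and 4 of ZIC2 and 6 and 4 of SOX2. With the 50000 top peaks of each list it had 4 and 4, against 7 and 4 of SOX2. At Zic2-Zic5 with 20 kb, POU5F1 had 2 peaks in EpiSC, fewer than the 3 of POU3F1, and OTX2 in activin-free culture had 3, as many as POU3F1. The ratios lay close together in the cultures, but they rest on 1 library each and carry no error beyond the counting of few peaks.

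**Figure D1:**
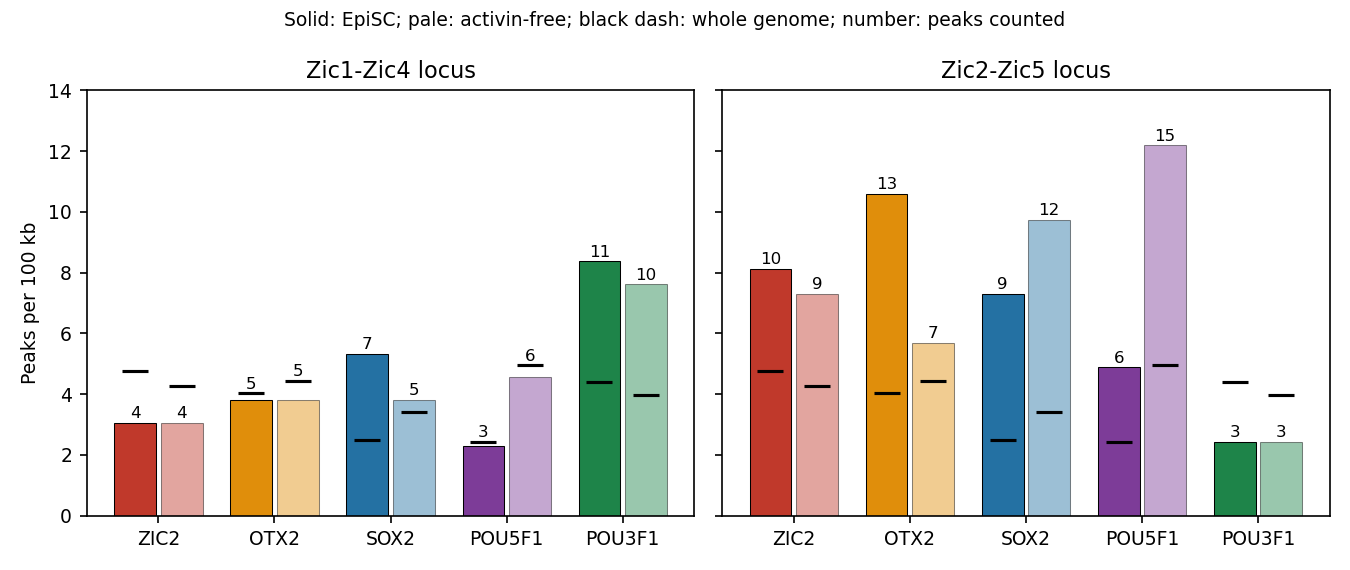
Peaks per 100 kb (vertical axis) of each TF at the Zic1-Zic4 locus (left) and the Zic2-Zic5 locus (right), as bars for EpiSC (solid) and activin-free (pale) culture, with the genome-wide density of the same list as a black dash and the number of peaks above each bar. POU3F1 bars stand above the dash at Zic1-Zic4 and below it at Zic2-Zic5, and ZIC2 bars the reverse. ZIC2-list peaks on Zic2 coding exons are left out, and peaks of the other lists on those exons are included.

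SOX2 was dense at Zic2-Zic5 in both cultures, with 9 peaks in EpiSC and 12 in activin-free culture, 2.94 and 2.84 times the genome density. At Zic1-Zic4, 7 SOX2 peaks in EpiSC gave 2.14 times the genome density, and 5 in activin-free culture 1.11 times. OTX2 had 13 peaks at Zic2-Zic5 in EpiSC and 7 in activin-free culture, while 5 were listed at Zic1-Zic4 in either culture. POU5F1 had 6 peaks in EpiSC and 15 in activin-free culture at Zic2-Zic5, and 3 and 6 at Zic1-Zic4. Relative to the genome density of the same list, which was longer in activin-free culture, these gave 2 and 2.46 times at Zic2-Zic5 and 0.937 and 0.922 times at Zic1-Zic4. The Zic2-Zic5 counts include peaks on Zic2 coding exons, described below. Without those peaks, SOX2 had 10 activin-free peaks at Zic2-Zic5 and POU5F1 had 13. Their activin-free ratios were then 2.37 and 2.13, and their EpiSC counts did not change. OTX2 had 11 in EpiSC and 6 in activin-free culture, with ratios of 2.22 and 1.1 in place of 2.62 and 1.28.

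Ranked by peaks per 100 kb among all protein-coding genes, SOX2 placed Zic5 and Zic2 highest in both cultures. Zic5 stood at percentile 98.8 in EpiSC and 99.4 in activin-free culture, and Zic2 at 98.1 and 98.4. Zic1 stood at percentile 96 in EpiSC and 80 in activin-free culture, and Zic4 at 93 and 73.9. For POU5F1, Zic5 was at percentiles 95.7 and 98.4 and Zic2 at 87.3 and 94.4, whereas Zic4 was at 70.3 and 72.6 and Zic1 at 37 and 49.1. For POU3F1, Zic1 was at percentiles 88.3 and 90.5 and Zic4 at 89.8 and 91.9. Zic2 was at 76.7 and 77.8 and Zic5 at 76 and 77.1, with the POU3F1 peaks on Zic2 coding exons included. The median gene had 0 POU3F1 peaks per 100 kb in EpiSC and 0.655 in activin-free culture. Zic2 and Zic5 thus stood above most genes in POU3F1 peaks, although their locus lay below the density of the whole genome. In ZIC2 peaks the 4 genes lay in the middle of the ranking, between percentile 29.9 (Zic4, EpiSC) and 59.9 (Zic5, activin-free). OTX2 percentiles ran from 22 for Zic1 to 85 for Zic5 in EpiSC, and from 24.8 for Zic4 to 57.4 for Zic5 in activin-free culture. The OTX2, SOX2 and POU5F1 percentiles of Zic2 and Zic5 also include any peaks on Zic2 coding exons. Windows of genes in a pair overlap, so that their values share most peaks.

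Zic2 was the gene whose coding exons were covered by peaks of several TFs. Its coding sequence comprised 1588 bases in 3 blocks, and the set-apart ZIC2-list peaks covered 100% of them in both cultures, each at a score of 3100. The first intron, beyond 500 bp from coding bases, was covered at 0%. Peaks of each of the other 4 TFs likewise covered 100% of the coding bases of the gene for that TF, with a highest score of 3100 in both cultures.

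Other lists also covered the Zic2 coding exons, although those libraries came from cells given a different TF. OTX2 peaks covered 100% of coding bases in both cultures, as 2 peaks in EpiSC, with scores of 631.96 and 677.6, and as a single peak of 3991 bp in activin-free culture, with a score of 1449.88. POU3F1 peaks covered 100% in EpiSC, with scores of 1118.2 and 379.49, and 98.3% in activin-free culture, with scores of 1458.95 and 572.8. SOX2 peaks covered 0% in EpiSC and 93.4% in activin-free culture, with scores of 720.59 and 166.41. POU5F1 peaks covered 0% in EpiSC and 100% in activin-free culture, with activin-free scores of 236.34 and 165.42. The SOX2, POU5F1 and POU3F1 peaks there thus came in 2 pieces, one over the first coding block and another over the later blocks, and left the inner part of the first intron uncovered. The OTX2 peaks covered that inner part at 100% in both cultures.

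The edges of those pieces lay between 12 and 302 bp outside the coding blocks, or stopped short of them. In EpiSC, the POU3F1 peak on the first block began 117 bp before it and ended 69 bp after it, and the other began 72 bp before the second block and ended 55 bp after the last. In activin-free culture, the SOX2 peaks overhung the first block by 125 and 130 bp, and the later blocks by 12 bp on the left while stopping 105 bp short on the right. The activin-free POU3F1 peaks began 228 bp before the first block and 302 bp before the second, and the POU5F1 peaks began 174 and 110 bp before them and ended 119 and 237 bp after. Whether DNA of a plasmid with Zic2 coding sequence contributed to these peaks in the lists of TFs other than ZIC2 was not tested. They were kept in the counts above, and without them the Zic2-Zic5 locus held 37 peaks in EpiSC and 39 in activin-free culture in place of 41 and 46, with 1 POU3F1 peak in either culture.

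**Figure D2:**
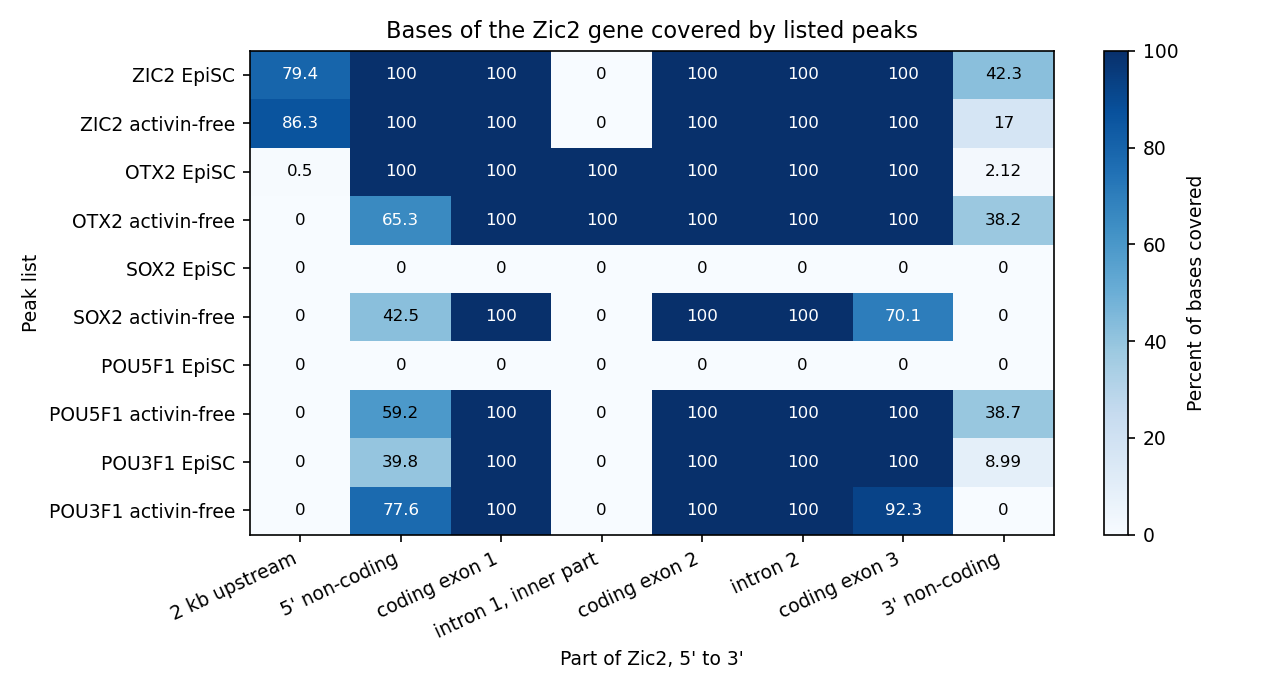
Percent of bases covered by listed peaks (colour and number) in each part of the Zic2 gene from 5′ to 3′ (horizontal axis), for each of the 10 lists (vertical axis). Coding exons are covered at 70.1 to 100% in 8 of the lists and at 0% in the EpiSC lists of SOX2 and POU5F1, while the inner part of the first intron is covered in the OTX2 lists alone.

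The coding sequences of the other family members were covered by ZIC2-list peaks in part and by no peak of OTX2, SOX2, POU5F1 or POU3F1. ZIC2-list peaks covered 76.4% of the 1866 coding bases of Zic5 in both cultures. At Zic4 they covered 57.6% in EpiSC and 49.7% in activin-free culture, and at Zic1 25.2% and 14.1%. The longest run of bases that the Zic2 coding sequence shared exactly with another member was 35 bases with Zic1, 30 with Zic4 and 26 with Zic5, shorter than the 100 bp reads.

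The peak over the outer Zic5 TSS was the broadest of the ZIC2 peaks that were counted. In EpiSC it spanned chr14:122862264-122865320, 3057 bp, with a score of 1504.73, and in activin-free culture chr14:122862332-122865288, 2957 bp, with a score of 1743.97. It extended from upstream of the TSS into the gene. Such a position is common for this TF, as a ZIC2 peak covered a TSS of 66.3% of protein-coding genes in EpiSC and 64.5% in activin-free culture. A ZIC2 peak covered an inner TSS of Zic4 in both cultures, with scores of 522.6 and 604.99. The outermost TSS of Zic4, within Zic1, was covered by a ZIC2 peak with a score of 170.14 in EpiSC and by none in activin-free culture. No counted ZIC2 peak covered a TSS of Zic1 or Zic2. At Zic1, the activin-free ZIC2 peak chr9:91259667-91260195 lay 0.675 kb from a TSS, with a score of 57.15. The counted ZIC2 peak nearest a Zic2 TSS in EpiSC was chr14:122872966-122873674, 1.28 kb upstream, with a score of 88.92. In activin-free culture that stretch lay within the set-apart peak, which reached 2020 bp before the first coding base.

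Among the other TFs, OTX2 covered a TSS of 1 of the 4 genes in each culture, namely Zic2, through the peaks on its coding exons, whereas 15.6% of all genes in EpiSC and 15.4% in activin-free culture had an OTX2 peak on a TSS. SOX2, POU5F1 and POU3F1 peaks covered no Zic TSS in either culture. Such cover was uncommon among all genes, at 2.94% in EpiSC and 7.18% in activin-free culture for SOX2, 2% and 4.29% for POU5F1, and 3.4% and 4.75% for POU3F1.

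Most members lay away from the Zic TSSs. Within 1 kb of a Zic TSS were 7 of 71 peaks in EpiSC, or 9.86% (95% Wilson interval 4.86 to 19), and 11 of 76 in activin-free culture, or 14.5% (8.28 to 24.1). These intervals cover counting error only. Without the peaks of all lists on Zic2 coding exons, the shares were 4.48% and 5.8%. The median distance to the nearest Zic TSS was 21.4 kb in EpiSC and 20 kb in activin-free culture at Zic1-Zic4, and 7.76 and 7 kb at Zic2-Zic5. By midpoint, 53 of the 71 EpiSC peaks and 52 of the 76 activin-free peaks lay outside the bodies of the Zic genes. Some of these lay within the predicted genes Gm5089 or Gm10837.

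**Figure D3:**
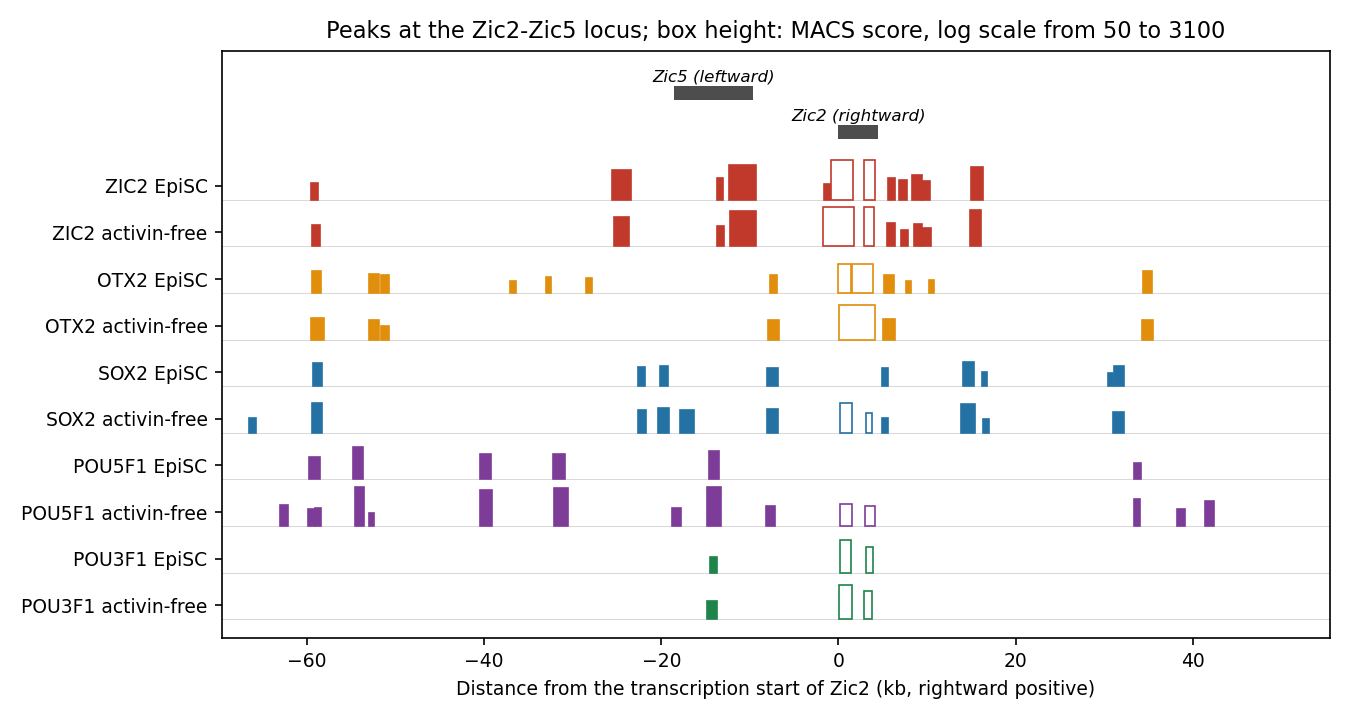
Peaks of the 10 lists (rows) at the Zic2-Zic5 locus by distance from the Zic2 TSS in kb (horizontal axis), with box height giving the MACS score on a log scale from 50 to 3100, gene bodies as grey bars, and open boxes for peaks on Zic2 coding exons. Most ZIC2 peaks lie between Zic5 and the region downstream of Zic2, whereas the tall POU5F1 boxes lie to the left of Zic5 and within it.

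Along the Zic2-Zic5 locus, each TF had its own leading positions. The highest counted ZIC2 peak was the one over the outer Zic5 TSS in EpiSC, whereas in activin-free culture it was a peak downstream of Zic2, with a score of 1903.2, which is the GC-rich stretch printed above. In EpiSC that peak, chr14:122889513-122890967, lay 12.9 kb downstream of a Zic2 TSS and scored 1121.56. A ZIC2 peak of 2195 bp in EpiSC, 9.16 kb downstream of the inner Zic5 TSS, scored 729.73, and its counterpart scored 722.14. Both had their midpoint within Gm5089. A group of 4 ZIC2 peaks in each culture followed the 3′ end of Zic2, from 3.29 to 7.21 kb beyond the nearest Zic2 TSS in EpiSC, with scores between 146.37 and 337.28.

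POU5F1 formed high-scoring peaks to the left of Zic5 and within it. At 38.9 kb from the inner Zic5 TSS on its downstream side, the score was 1118.28 in EpiSC and 2772.99 in activin-free culture. Further POU5F1 peaks at 24.5 and 16.2 kb on that side scored 398.13 and 359.99 in EpiSC, and 1712.25 and 2362.72 in activin-free culture. The midpoints of these further peaks lay within the predicted gene Gm5089. A peak in an intron of Zic5, which overlapped a ZIC2 peak in both cultures, scored 634.37 in EpiSC and 2660.62 in activin-free culture. Over all POU5F1 peaks found in both cultures, there was a median activin-free score of 3.83 times the EpiSC score, so higher activin-free scores were found in the list as a whole as well as here.

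OTX2 and SOX2 peaks at Zic2-Zic5 outside Zic2 exons had moderate scores. The highest OTX2 peak of the locus in EpiSC, 32.2 kb downstream of a Zic2 TSS, had 241.75, and 172.86 in activin-free culture, in which the OTX2 peak of the site with 4 TFs was the highest, at 223.18. The highest SOX2 peak of the Zic2-Zic5 locus in EpiSC lay 11.9 kb downstream of a Zic2 TSS, with 301.17, and had 623.86 in activin-free culture. In activin-free culture the SOX2 peak of the site with 4 TFs was higher, at 740.11 against 266.97 in EpiSC. The single POU3F1 peak outside Zic2 exons, in an intron of Zic5, had 96.35 in EpiSC and 135.57 in activin-free culture.

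The member peaks nearest the ends of the Zic2-Zic5 window were not the same in EpiSC and activin-free culture. In EpiSC the leftmost by midpoint was the ZIC2 peak of the site with 4 TFs, although the POU5F1 peak of that site began further left. In activin-free culture it was a SOX2 peak 50.8 kb from the inner Zic5 TSS, with a score of 81.96. On the right, the outermost was the OTX2 peak at 32.2 kb in EpiSC and a POU5F1 peak at 39.2 kb, with a score of 341.31, in activin-free culture.

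**Figure D4:**
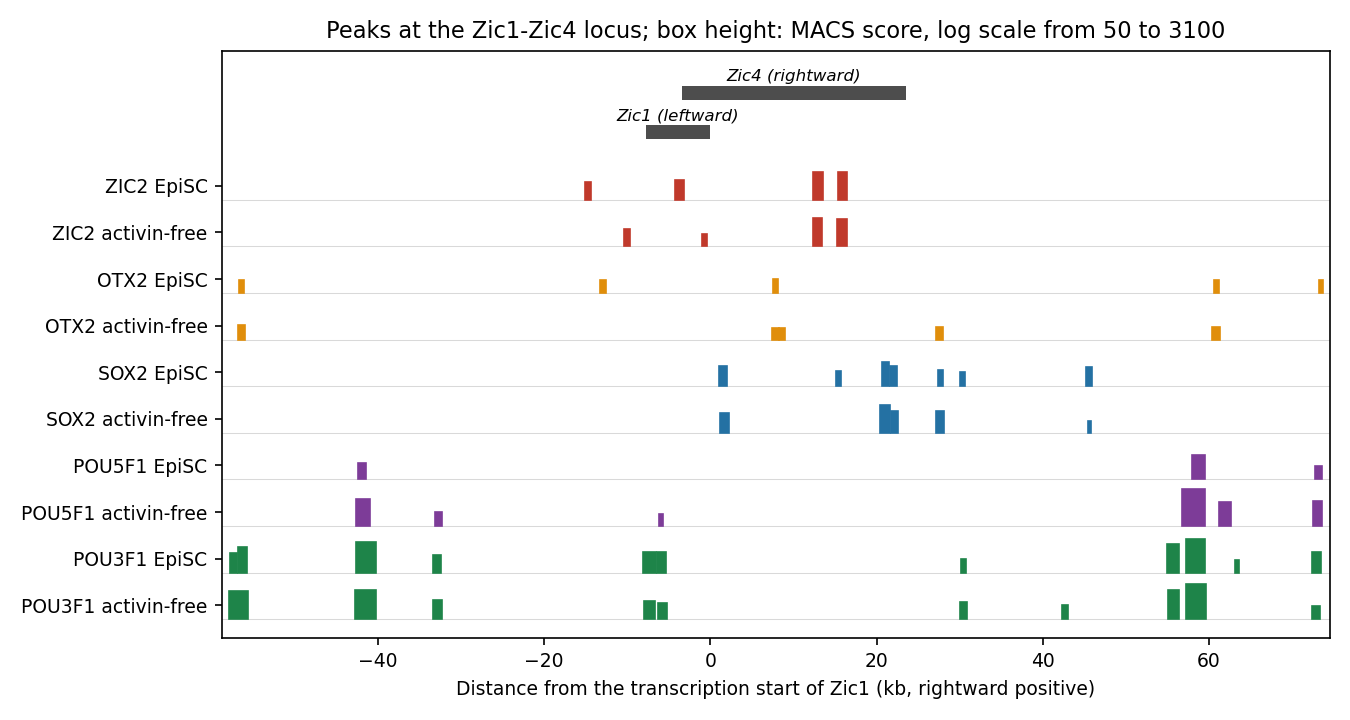
Peaks of the 10 lists (rows) at the Zic1-Zic4 locus by distance from the Zic1 TSS in kb (horizontal axis), with box height giving the MACS score on a log scale from 50 to 3100 and gene bodies as grey bars. POU3F1 and POU5F1 boxes stand mostly in the flanks of the gene pair, while all ZIC2 boxes lie in or near the genes.

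At Zic1-Zic4 the leading peaks belonged to the POU factors and lay far from the genes. The highest POU3F1 peak, chr9:91317939-91320163 in EpiSC, lay 41.8 kb downstream of a Zic4 TSS and scored 1347.68 in EpiSC and 1699.61 in activin-free culture. The highest POU5F1 peak of the locus overlapped it in both cultures, with scores of 306.86 and 2033.5. On the other side, beyond the 3′ end of Zic1, a POU3F1 peak 38 kb from a Zic4 TSS scored 823.73 in EpiSC and 691.57 in activin-free culture, and a POU5F1 peak overlapping it scored 94.15 and 501.87. Another POU3F1 peak, 39.1 kb downstream of a Zic4 TSS, scored 580.03 and 679.74. Within the genes, POU3F1 peaks on the 3′ part of Zic1 were lower, at 195.6 and 180.08 in EpiSC and at 133.88 and 92.13 in activin-free culture.

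A pair of ZIC2 peaks within Zic4 was found in both cultures, lower than the POU3F1 maximum and, in EpiSC, higher than the POU5F1 maximum. The first, on a coding exon, scored 522.6 in EpiSC and 604.99 in activin-free culture, and the second, in an intron, 560.24 and 551.92. The other ZIC2 peaks scored 123.97 and 170.14 in EpiSC and 113.55 and 57.15 in activin-free culture, and none of these was met in the other culture. SOX2 peaks included a neighbouring pair on non-coding exons of Zic4, of which the higher scored 305.23 and 505.57. All OTX2 peaks of the locus were near the threshold of the lists, between 58.58 and 68.88 in EpiSC and between 51.91 and 75.75 in activin-free culture. At the ends of the window in EpiSC lay a POU3F1 peak, 54 kb from a Zic4 TSS, with a score of 152.04, and an OTX2 peak at 56.9 kb with a score of 58.58.

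Overlap among TFs was then examined by joining peaks of 1 culture that shared at least 1 bp into sites. The Zic1-Zic4 locus held 23 sites in EpiSC and 22 in activin-free culture, of which 1 and 0 had 3 or more TFs. The Zic2-Zic5 locus held 27 sites in each culture, of which 3 and 5 had 3 or more. In the genome, 2.74% of sites in EpiSC and 5.05% in activin-free culture had 3 or more TFs. Of the 5 activin-free sites, 1 lay on Zic2 coding exons and joined 7 peaks of OTX2, SOX2, POU5F1 and POU3F1.

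Outside the Zic2 coding exons, the site with the largest number of TFs at Zic2-Zic5 lay 43.4 kb downstream of the inner Zic5 TSS and was present in both cultures. In EpiSC it spanned chr14:122814845-122816304 with ZIC2 at a score of 106.51, OTX2 at 223.29, SOX2 at 266.97 and POU5F1 at 241.79. In activin-free culture ZIC2 was at 209.46, OTX2 at 223.18 and SOX2 at 740.11, and POU5F1 formed 2 peaks at 113.44 and 120.45. POU5F1 here was lower in activin-free culture, the only one of its 9 EpiSC peaks at the Zic loci with a ratio under 1, while the median ratio of its whole list was 3.83. The sequence printed for this site held letters for ZIC, OTX2 and POU factors, and outside it the SOX2 peak held ACAAAG and ACAATG, at 1 place each.

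At Zic2-Zic5 the remaining sites with 3 TFs lay in or near the genes. At chr14:122859937-122861608, in Zic5, ZIC2 (237.01), POU5F1 (634.37) and POU3F1 (96.35) overlapped in EpiSC. The same 3 TFs formed a site in activin-free culture. There the POU5F1 peak overlapped both others, but the ZIC2 and POU3F1 peaks did not overlap each other. At chr14:122879504-122881020, just downstream of Zic2, ZIC2 (224.18), OTX2 (129.73) and SOX2 (137.77) formed a site in EpiSC. The OTX2 peak there overlapped both others, but the ZIC2 and SOX2 peaks did not overlap each other. In activin-free culture the peaks of these 3 TFs all overlapped. Between Zic5 and Zic2, OTX2 (136.89) and SOX2 (134.68) overlapped in EpiSC, and in activin-free culture OTX2 (158.66) and SOX2 (292.42) were joined by a POU5F1 peak (182.28). At Zic1-Zic4 the single site with 3 TFs, chr9:91333033-91334422, at the right end of the window, was made of low peaks of POU3F1 (177.02), POU5F1 (62.29) and OTX2 (58.58) in EpiSC.

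In pairwise terms, all 3 POU5F1 peaks at Zic1-Zic4 in EpiSC and 5 of 6 in activin-free culture were met by a POU3F1 peak, and at Zic2-Zic5 1 of 6 and 3 of 15 were. Without the peaks on Zic2 coding exons, the latter count was 1 of 13. In the genome, 51.7% of POU5F1 peaks in EpiSC and 46.3% in activin-free culture were met by POU3F1. ZIC2 and OTX2, which met at 4 of 10 ZIC2 peaks at Zic2-Zic5 in EpiSC and 2 of 9 in activin-free culture, met at none of the 4 ZIC2 peaks at Zic1-Zic4 in either culture. Across the genome OTX2 met 14.8% of ZIC2 peaks in EpiSC and 12.7% in activin-free culture. These counts are small, and no difference between the loci was tested.

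To ask which peaks were found with and without activin, each member was compared with the list of the same TF in the other culture. Of the 71 EpiSC peaks, 58 were met by an activin-free peak, or 81.7% (71.2 to 89), close to 82.1% of all EpiSC peaks. Of the 76 activin-free peaks, 56 were met in EpiSC, or 73.7% (62.8 to 82.3), against 69.3% of all. Among the 58 EpiSC peaks, the ZIC2 peak upstream of Zic2 was met by a set-apart peak alone, and without it 57 were met, or 80.3% (69.6 to 87.9), with 11 in place of 12 for ZIC2. By TF, 9 of 9 POU5F1, 13 of 14 POU3F1, 12 of 14 ZIC2, 13 of 16 SOX2 and 11 of 18 OTX2 peaks in EpiSC were met. Genome-wide, the shares were 98.3%, 82.6%, 78.9%, 77.6% and 78.1% in the same order. In the opposite direction 10 of 21 POU5F1 peaks were met, against 47.1% of all activin-free POU5F1 peaks. Of the other activin-free members, 12 of 13 POU3F1, 11 of 13 ZIC2, 13 of 17 SOX2 and 10 of 12 OTX2 peaks were met, against 86.8%, 91.2%, 55.9% and 67.5% of those lists.

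The members listed in EpiSC alone were mostly low, the highest at 170.14. Several members listed in activin-free culture alone were higher, up to 720.59 for a SOX2 peak on Zic2 coding exons. At Zic2-Zic5, 5 OTX2 peaks were found in EpiSC without an activin-free counterpart, and they scored between 55.19 and 89.02. The highest member without a counterpart outside Zic2 exons was an activin-free POU5F1 peak 39.2 kb downstream of a Zic2 TSS, at 341.31, followed by an activin-free POU5F1 peak 45.3 kb downstream of a Zic4 TSS, at 291.64. An activin-free SOX2 peak at the 3′ end of Zic5 scored 256.13.

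**Figure D5:**
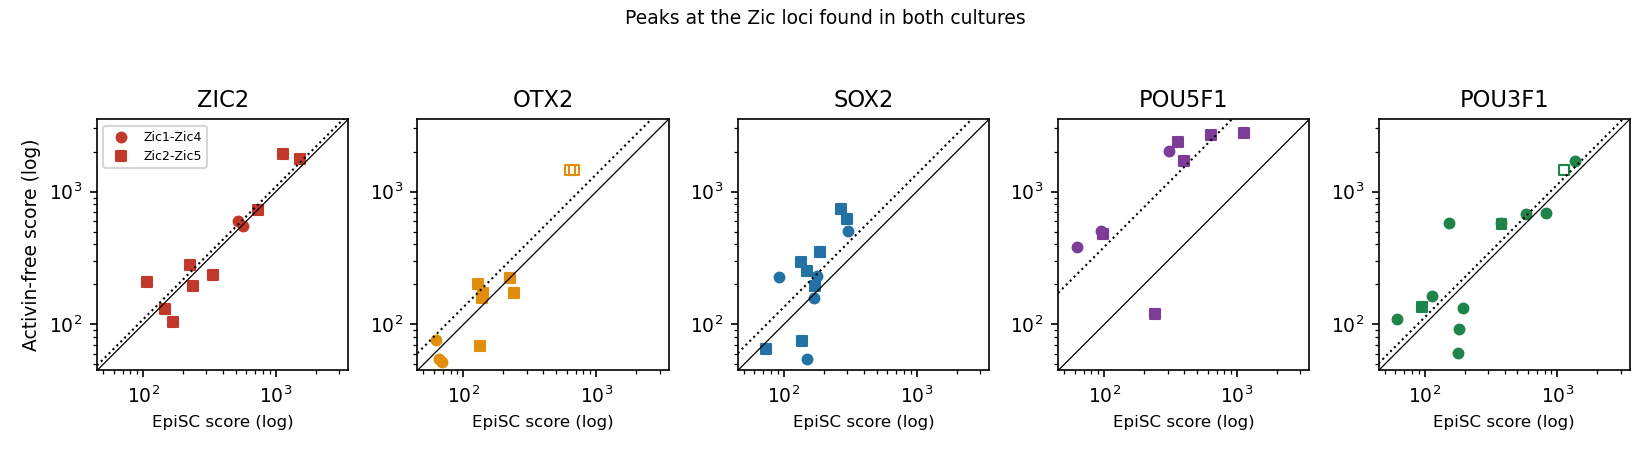
MACS scores of member peaks found in both cultures, EpiSC (horizontal axis, log) against activin-free (vertical axis, log), one panel per TF, with circles for Zic1-Zic4, squares for Zic2-Zic5 and open symbols for peaks on Zic2 coding exons. The solid line marks equal scores and the dotted line the median ratio of the whole list. POU5F1 points lie near their dotted line at 3.83 times the EpiSC score, except 1 below the line of equal scores.

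Among peaks found in both cultures, the ratio of the activin-free to the EpiSC score had a median of 0.99 for ZIC2 (11 peaks, 0.615 to 1.97) against 1.09 in the whole list. For OTX2 the median was 1.16 (11 peaks, 0.514 to 2.29) against 1.35. SOX2 had 1.66 (13 peaks, 0.363 to 2.77) against 1.35, POU5F1 4.9 (9 peaks, 0.498 to 6.63) against 3.83, and POU3F1 1.3 (13 peaks, 0.343 to 3.81) against 1.13. For OTX2 and POU3F1, 2 EpiSC peaks shared 1 activin-free peak, and with that peak counted once, against the higher, the highest ratios were 2.14 and 1.75 and the medians 1.08 and 1.28. The OTX2 ratios of 2.29 and 2.14 came from peaks on Zic2 coding exons, and the highest OTX2 ratio outside those exons was 1.55. POU3F1 peaks on those exons had ratios of 1.3 and 1.51. Scores depend on depth and on the input library, and the part of either in these ratios was not tested.

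Letters of the binding motifs were sought within 100 bp of each midpoint, leaving out peaks on Zic2 coding exons. CAGCAGG occurred at 0 of 14 ZIC2 peaks in EpiSC and 2 of 13 in activin-free culture, against 19.1% and 21% of all ZIC2 peaks. Over the whole peak, these letters occurred in 6 of 14 and 7 of 13, against 48.6% and 48.8% of all. GGATTA occurred at 3 of 16 and 1 of 11 OTX2 peaks, against 23.6% and 21.8%, and GGTAAT at 1 of 16 and 0 of 11, against 7.22% and 7.47%. ACAAAG was found at 6 of 16 and 6 of 15 SOX2 peaks, against 38.2% and 36.9%, and ACAATG at 3 of 16 and 3 of 15, against 29.8% and 28%. At POU5F1 peaks, ATGCAAAT occurred at 0 of 9 and 3 of 19, against 6.48% and 5.06%, and ATGCATAT at 1 of 9 and 1 of 19, against 12.9% and 9.02%. At POU3F1 peaks each of these occurred at 1 of 12 and 1 of 11, against 4.69% and 4.9% for the former and 4.4% and 4.75% for the latter. A stretch of at least 20 bases in which purines and pyrimidines alternated was present at 2 of 9 POU5F1 peaks in EpiSC and 4 of 19 in activin-free culture, against 29.6% and 21.5% of all POU5F1 peaks, and at 0 of 12 and 0 of 11 POU3F1 peaks, against 4.16% and 5.05%. The 2 EpiSC POU5F1 peaks with such a stretch were those named above at 38.9 and 16.2 kb from the inner Zic5 TSS. A match is a description of the sequence, and the absence of a match means that these letters were not in the window.

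Of the genes for the other 4 profiled TFs, Pou5f1 had 30 ZIC2 peaks in EpiSC, Pou3f1 26, Otx2 11 and Sox2 7, while the Zic genes had between 4 and 10 and the median of all protein-coding genes was 9. Pou3f1 had no SOX2 peak in either culture.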

How the data were processed

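ChIP-seq peak lists of 5 TFs in 2 cultures were analysed. The authors aligned their 100 bp reads by Bowtie2 (build mm9), and MACS 1.4, given input DNA and a band width of 150, produced the peaks. Each deposited list gives a score per peak, on which depth and saturation both act, and holds no read counts. The input library was not analysed here. From these lists, peaks were assigned to a locus by midpoint, overlaps required 1 bp, and genome-wide shares were taken over all peaks or genes of chromosomes 1 to 19, X and Y with GENCODE vM1. Shares carry 95% Wilson intervals. Python 3.11.15, numpy 2.4.6, pandas 2.3.3, pysam 0.24.0 and matplotlib 3.10.9 were used, and the overlap, site and coverage steps were checked on simulated lists. Peaks named are those that cover a Zic TSS, belong to a site with 3 or more TFs, score highest in a list or lie nearest a window end, and further peaks named for their score or for lack of a counterpart were chosen after their values were seen. The members, gene lists and letters were chosen with earlier results of these data known. Alternatives changed the score minimum, window, membership, merging, overlap and list length. Certain related items are not reported here.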

Additional observations from a re-analysis of the deposited data

How the results depend on the processing

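No paired analysis was possible because each TF was profiled in 1 library per culture and no result comes from a test, and with no replicates none could be left out. Of 88 values under alternative settings, 67 did not move beyond 1.5 times or their interval. Of 130 counts per list and locus, 93 stayed within 1.5 times, and among the others POU3F1 at Zic1-Zic4 in EpiSC fell from 11 to 3 with 20 kb and to 4 with the 50000 top peaks. With a score of at least 100, Zic1-Zic4 held 18 peaks in both EpiSC and activin-free culture in place of 30, and 0 EpiSC sites with 3 or more TFs in place of 1. With windows of 20 kb it held 15 and 16 peaks and 0 such EpiSC sites, Zic2-Zic5 held 29 activin-free peaks, the activin-free share within 1 kb of a TSS was 24.4%, and the median peaks per gene window fell from 6 to 3. With 100 kb, Zic1-Zic4 held 57 and 59 peaks with 2 and 3 sites of 3 or more TFs, Zic2-Zic5 held 63 and 70 peaks, and the median per gene window was 10. When each list was limited to its top 50000 peaks by score, Zic1-Zic4 held 15 and 13 peaks and Zic2-Zic5 28 in activin-free culture. Leaving out peaks of all lists on Zic2 coding exons, an alternative chosen after seeing the data, gave 4.48% and 5.8% within 1 kb of a TSS in place of 9.86% and 14.5%. These counts move because each setting admits fewer or more peaks. Read depth is unknown, so it cannot be said which low peaks a deeper library would add.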

Other observations

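Peaks were also counted in the flanks from 50 to 100 kb on either side of the gene pairs. At Zic1-Zic4, no ZIC2 peak was listed there in either culture, while 13 POU3F1 peaks were in EpiSC and 12 in activin-free culture, with highest scores of 3185.7 and 3100. POU5F1 had 9 and 11 peaks in those flanks, the highest at 493.37 in EpiSC and 3005.41 in activin-free culture. The outer flanks of Zic2-Zic5 held 2 ZIC2 peaks in each culture, and OTX2 was the most frequent TF, with 11 peaks in EpiSC and 12 in activin-free culture. POU3F1 had 4 and 1 there, and SOX2, with 9 and 12 peaks inside the window, had 1 and 2.

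Exon cover by lists of a different TF was not limited to Zic2. Coding bases of Otx2 were covered at 63.6% by ZIC2 and 62.7% by POU3F1 peaks in EpiSC, and in activin-free culture at 0% by ZIC2, 69.4% by POU3F1, 63% by SOX2 and 63.2% by POU5F1 peaks. Coding bases of Pou3f1 were covered at 100% by ZIC2 peaks and at 0% by OTX2, SOX2 and POU5F1 peaks in both cultures. ZIC2 peaks also covered the coding bases of Sox2 at 100% in both cultures, with scores of 3100 and 2762.08, and those of Pou5f1 at 76.3% in EpiSC and 62.6% in activin-free culture. The source of these peaks was not tested.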
